A study of Homo sapiens with 12 samples.

Results

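The 10 genes described here are the melanocyte lineage regulator MITF, its upstream partner SOX10, and 8 genes of the pigment pathway, namely TYR, TYRP1, DCT, PMEL, MLANA, RAB27A, GPR143 and OCA2. They were chosen by gene symbol from the 44659 genes listed in the count table, and all 10 were found. RNA was sequenced from A375, a human melanoma cell line that carries an activating BRAF mutation, so every value comes from 1 line. The control (CC) was a 72 h culture in DMSO, the solvent of the drugs. The treated group (TC) received the BRAF inhibitor vemurafenib at 500 nM and the MEK inhibitor cobimetinib at 500 nM for the same 72 h (MAPKi). Persister cells (PC) were given that treatment and then 2 days in drug-free medium, and recovered cells (RC) were given it and then 9 days in drug-free medium. Each group had 3 libraries of cytoplasmic RNA depleted of ribosomal RNA. DMSO libraries were made at the end of the 72 h only, so in PC and RC the time in culture and the time after drug removal cannot be told apart.

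Melanin is made inside melanosomes, organelles related to lysosomes. MITF, a basic helix-loop-helix leucine zipper factor, binds E-box sequences in the promoters of pigment genes, and SOX10 is known to drive transcription of MITF and to act beside it at DCT and other genes. Tyrosinase (TYR) carries out the rate-limiting oxidation of tyrosine, and DCT and TYRP1 act further along the route to eumelanin. PMEL forms the fibrils on which melanin is laid down, and MLANA takes part in the maturation of PMEL. RAB27A links mature melanosomes to the actin motor, while OCA2 and GPR143 are melanosome membrane proteins. In melanoma the MAPK pathway acts on MITF both at the level of its gene and at the level of its protein. The RNA counts show the amount of RNA, which depends on its synthesis and its decay, and not the protein.

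The promoter sequences of the 3 enzymes DCT, TYR and TYRP1 are shown first. RefSeq promoter windows on GRCh38.p14 were found for 8 of the 10 genes, and the 250 bases before each RefSeq start of transcription were searched on both strands. PMEL and SOX10 had no entry. The windows of DCT (chr13:94479683-94479932, minus strand), TYR (chr11:89177625-89177874, plus strand) and TYRP1 (chr9:12693135-12693384, plus strand) are printed 5′ to 3′ along the gene. Capitals mark CATGTG, an E-box core, or its reverse complement CACATG.
DCT: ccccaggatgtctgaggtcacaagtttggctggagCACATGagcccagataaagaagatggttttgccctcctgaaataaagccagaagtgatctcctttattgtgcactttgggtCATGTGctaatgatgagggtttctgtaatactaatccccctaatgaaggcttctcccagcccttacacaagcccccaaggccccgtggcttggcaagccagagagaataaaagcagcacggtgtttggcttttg
TYR: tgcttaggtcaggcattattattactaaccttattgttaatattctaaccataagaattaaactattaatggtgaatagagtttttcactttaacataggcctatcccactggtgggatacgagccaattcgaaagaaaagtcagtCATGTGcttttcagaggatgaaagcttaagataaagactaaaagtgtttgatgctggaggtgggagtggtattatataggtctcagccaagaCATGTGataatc
TYRP1: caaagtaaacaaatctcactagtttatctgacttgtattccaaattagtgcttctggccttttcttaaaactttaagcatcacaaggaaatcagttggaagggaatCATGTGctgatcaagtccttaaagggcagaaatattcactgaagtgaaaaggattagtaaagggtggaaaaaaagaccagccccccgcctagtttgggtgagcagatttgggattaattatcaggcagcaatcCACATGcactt
The longest string common to these 3 windows, as read along the gene, was TCATGTGCT, 9 bases long. Matches to it were then sought on both strands. It began 105 bases before the start in TYR, 145 bases before it in TYRP1, and 135 and 217 bases before it in DCT, where the second match is on the opposite strand. GPR143 also held it, 35 bases before its start. Of the 35116 windows in the RefSeq table, 0.182% held TCATGTGCT, 2.52% held the TCATGTG within it and 9.42% held the CATGTG within that. OCA2 held 1 CATGTG and not the longer strings, and the windows of MLANA, RAB27A and MITF held none. The core CACGTG was in 6.34% of all windows and in no window of these genes. The motifs were picked with the sequences in view, and a match describes the letters and not a bound site. TCATGTGCT was taken from the windows of the 3 enzymes, so that they share it is no result. GPR143, which also held it, was too low to test, and MLANA, without a CATGTG, was called higher in TC. Whether a match goes with a change in level was not tested.

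The window before the melanocyte start of MITF (chr3:69936342-69936591, plus strand) is shown because that start gives the isoform of pigment cells. Capitals mark GACGTC, the centre of the cAMP response element, which was in 4.36% of all windows.
MITF: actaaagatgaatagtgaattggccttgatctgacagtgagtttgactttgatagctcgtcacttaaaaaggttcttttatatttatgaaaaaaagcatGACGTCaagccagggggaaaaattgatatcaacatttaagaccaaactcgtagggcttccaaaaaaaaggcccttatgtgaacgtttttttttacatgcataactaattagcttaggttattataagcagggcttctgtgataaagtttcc
The counts add up all MITF isoforms, so the part of this start in the values below is not known.

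Total counts ran from 37773389 to 55567097 per library, and levels are given as CPM, a gene's count over the scaled total of its library times 1000000. The targets of the MAPK pathway DUSP6, SPRY4 and ETV4 fell from 156 to 3.94, from 444 to 1.65 and from 235 to 2.61 mean CPM between CC and TC. CC replicate 3 stood apart from the other CC libraries with 297 CPM of DUSP6 against 77.6 and 94.4, and with 720 CPM of SPRY4 against 342 and 270.3. ETV4 was close to level across CC, at 236, 230 and 238 CPM in replicates 1, 2 and 3. SOX10, PMEL, DCT and S100B were well expressed, which goes with the melanocytic label of the line, whereas MLANA, TYR and TYRP1 were low in CC. Of 11 markers of keratinocytes, epithelial, immune, endothelial cells and fibroblasts, 5 passed the filter on low counts. CDH5 was at 0 in every library, and KRT5, CD3E and PECAM1 had at most 2 counts. The summed level of the 11 markers was 29.8 to 39.2 CPM in CC, 9.43 to 11.4 in TC, 10.4 to 12.05 in PC and 23.0 to 26.3 in RC. Most of it was LUM, without which it was 2.85 to 7.35 CPM over all libraries. LUM, VWF and PTPRC were called lower than CC in both TC and PC, with VWF and PTPRC at mean levels of at most 4.11 and 0.606 CPM in any group. KRT14, a keratin of basal keratinocytes, rose from a mean of 0.015 CPM in CC to 0.396 in TC and 2.29 in PC. It was back at 0.016 in RC. Its rise from TC to PC was opposite to DCT and PMEL, which fell over that step. KRT14 had 0, 2 and 0 counts in CC and passed the filter through TC and PC alone. The part of these markers in the results below was not tested.

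Under MAPKi 5 pigment genes and SOX10 rose and RAB27A fell, while the change of MITF itself was not called. Genes with a mean scaled count of at least 10 were tested, which took in 8 of the 10 genes and left out GPR143 and OCA2. Between TC and CC, 6 of the 8 were higher and 1 was lower at an adjusted p under 0.05 from the quasi-likelihood test of edgeR. Over all 15916 tested genes, 33.2% were called higher and 34.7% lower in that comparison. The median log2 fold change was 1.34 over the 8 genes and -0.02 over all tested genes. Beyond 1.5-fold, 5 of the 8 were higher and 0 lower, against 16.1% and 19.3% of all genes. Fewer cells that make a transcript and less of it per cell cannot be told apart in these bulk libraries.

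The same 6 genes were still above CC 2 days after drug removal. Between PC and CC, 6 of the 8 were higher and 2 lower, with 33.2% and 35.9% of all genes called. Beyond 1.5-fold the counts were 4 and 0, against 17.2% and 19.9%. From TC to PC, 0 were higher and 4 lower, with 12.2% and 12.5% of all genes called, and 0 were higher and 1 lower beyond 1.5-fold, against 2.33% and 1.15%.

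After 9 days these genes had come down. From PC to RC, 6 of the 8 genes were lower, all 6 of them beyond 1.5-fold, and 2 were higher. Over all genes 34.2% were lower, 18.5% lower beyond 1.5-fold, 35.7% higher and 20.2% higher beyond 1.5-fold, which none of the 8 was. RC still differed from CC in 3 genes, all lower, with 19.1% of all genes called lower and 18.2% higher. Beyond 1.5-fold none of the 8 differed between RC and CC, where 1.35% of all genes were higher and 2.52% lower. The 3 genes lower in RC were SOX10, TYRP1 and PMEL.

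**Figure D1:**
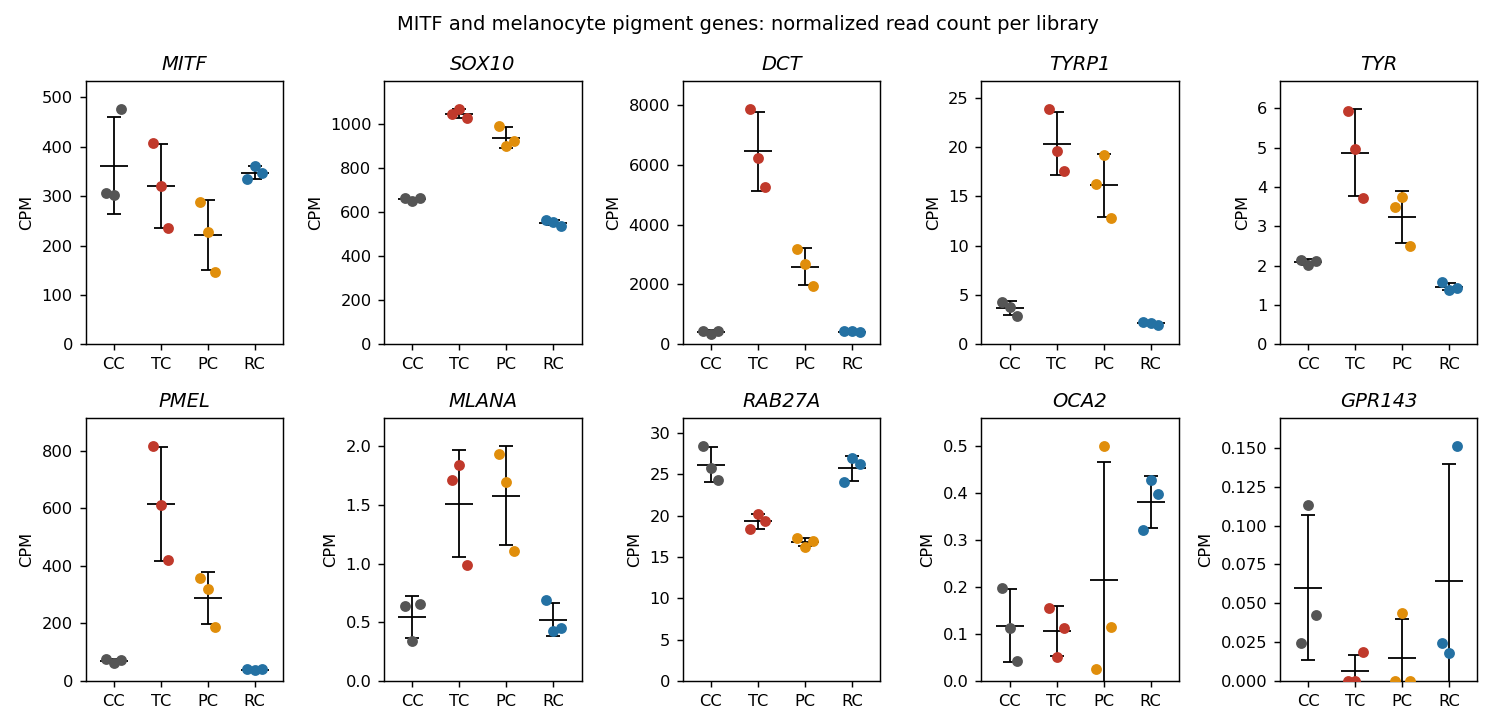
Normalized read count (CPM, linear axes from 0, a scale per gene) of the 10 genes in each library, with points for replicates and bars for the mean and SD of 3 libraries (bars that would pass below 0 end at 0). DCT runs from 337 to 444 CPM in CC and from 5261 to 7866 in TC, while the MITF points of TC lie within the range of 236 to 407 CPM and overlap those of CC.

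MITF lies on chromosome 3 (hg38, 69739456 to 69968336, plus strand). In CC it was measured at 306, 303 and 476 CPM in replicates 1, 2 and 3, and in TC at 407, 321 and 236 CPM. The groups overlapped, and both the highest CC library and the lowest TC library were replicate 3. The fitted log2 change was -0.17 (SE 0.25, 95% interval -0.72 to 0.37, edgeR adjusted p = 0.558). The interval includes changes of either sign, and the point estimate turned positive without CC replicate 3 (0.08) or without TC replicate 3 (0.0076). The MAPK targets DUSP6 and SPRY4 were also at their highest in CC replicate 3, whereas ETV4 was close to level across CC (236, 230 and 238 CPM).

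In PC, MITF was at 288, 228 and 147 CPM, below every CC library. The log2 change from CC was -0.71 (SE 0.25, adjusted p = 0.0230), a level 1.64-fold lower. That call rested on single libraries. Without CC replicate 3 it was -0.45 (adjusted p = 0.125), and without PC replicate 3 it was -0.49 (adjusted p = 0.0868). In RC the level was 334, 360.2 and 348 CPM, between the lower and the higher CC values (log2 change -0.06, SE 0.25, adjusted p = 0.879). The rise from PC to RC was 0.66 (SE 0.25, adjusted p = 0.0336), and it was lost in 5 of the 12 fits that left out 1 library (without PC replicate 2 or 3 or any RC replicate), with adjusted p up to 0.125.

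SOX10, an SRY-related factor of neural crest and melanocytes, lies on chromosome 22 (37970686 to 37987422, minus strand). It had the tightest replicates of the set in CC, TC and RC. The 3 CC libraries held 662, 650.0 and 664 CPM, and the TC libraries 1044, 1067 and 1027. Every TC library was above every CC library by a similar amount. The log2 change was 0.67 (SE 0.05, adjusted p = 2.5e-07), a 1.59-fold higher level, which did not pass the test against 1.5-fold (adjusted p = 0.0571). PC remained higher than CC, with 992, 901 and 923 CPM and a log2 change of 0.51 (SE 0.05, adjusted p = 2.5e-06). In RC the level went below that of CC, at 564, 554 and 539 CPM, without overlap. The change from CC was -0.25 (SE 0.05, adjusted p = 0.0026), or 1.19-fold lower. Per kilobase of annotated exon, SOX10 was the most abundant of the 10 in CC (136.5 ± 1.56 CPM per kb, SD, n = 3) and in RC (114.5 ± 2.66).

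SOX10 shares 260 bases of exon with POLR2F on the opposite strand, and whether counting used strand is not given in the sources used here. POLR2F itself had 101.4 ± 10.46 CPM in CC and 101.1 ± 3.96 in TC (SD, n = 3, log2 change -0.0045, adjusted p = 0.962).

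DCT, dopachrome tautomerase, had the largest change of the 8 tested genes from CC to TC, from CC to PC and from TC to PC. It lies on chromosome 13 (94436811 to 94479682, minus strand). CC libraries held 444, 337 and 440 CPM, and TC libraries 7866, 6231 and 5261. All TC libraries were more than 10 times above all CC libraries. The log2 change was 3.99 (SE 0.20, adjusted p = 5.6e-09), or 15.8-fold. DCT alone took 0.0334% to 0.0445% of all counts in CC and 0.508% to 0.792% in TC, where its rank among all genes was 3 or 4.

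In PC the level of DCT was 3177, 2672 and 1955 CPM, lower than in any TC library and higher than in any CC library. The log2 change was 2.68 from CC (SE 0.19, adjusted p = 9.4e-08) and -1.31 from TC (SE 0.18, adjusted p = 0.00028). DCT was the 1 gene of the 8 whose fall from TC to PC passed the test against 1.5-fold (adjusted p = 0.0078). By day 9 it was at 436, 429.9 and 396 CPM, within the span of the CC libraries. The difference of RC from CC was 0.05 on the log2 scale (SE 0.18, 95% interval -0.34 to 0.43, adjusted p = 0.863).

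TYRP1, the other enzyme of the eumelanin route after tyrosinase, started from a far lower level. It lies on chromosome 9 (12685439 to 12710285, plus strand). CC held 4.24, 3.80 and 2.88 CPM, and TC held 23.8, 19.6 and 17.6. The lowest TC value was several times the highest CC value. The log2 change was 2.48 (SE 0.19, adjusted p = 1.7e-07), or 5.59-fold. Unlike that of DCT, the fall of TYRP1 from TC to PC did not pass the test. PC held 16.3, 19.2 and 12.8 CPM, overlapping TC, with a log2 change of -0.33 (SE 0.17, adjusted p = 0.188). Whether the falls of DCT and TYRP1 differed was not tested. In RC TYRP1 had dropped to 2.29, 2.14 and 1.97 CPM, below all CC libraries (log2 change -0.77, SE 0.19, adjusted p = 0.0071).

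Tyrosinase itself showed the same order at a lower size. TYR lies on chromosome 11 (89177875 to 89295759, plus strand). It had 2.15, 2.01 and 2.12 CPM in CC and 5.93, 4.96 and 3.73 in TC, from 64 to 229 counts per library over all groups. TC was above CC in every library, with a log2 change of 1.22 (SE 0.20, adjusted p = 0.00017). PC lay between, at 3.48, 3.74 and 2.50 CPM. Its difference from CC was 0.63 (SE 0.20, adjusted p = 0.0139), and without PC replicate 2 it was 0.51 (adjusted p = 0.0635). The fall from TC to PC of -0.59 (SE 0.20, adjusted p = 0.0476) was lost in 13 of 18 alternative fits. RC held 1.58, 1.39 and 1.44 CPM, below every CC library, but the log2 change of -0.51 was not called (SE 0.20, adjusted p = 0.0663).

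PMEL, which builds the fibrils of the early melanosome, lies on chromosome 12 (55954105 to 55973317, minus strand). Its level was 75.3, 63.3 and 71.6 CPM in CC and 817, 609.9 and 420 CPM in TC. TC was above CC in every library, with replicate 1 the highest and replicate 3 the lowest, as for MITF, DCT, TYRP1 and TYR. The log2 change was 3.13 (SE 0.26, adjusted p = 4.3e-07), or 8.78-fold. PC held 358, 321 and 187 CPM, a fall from TC of -1.09 (SE 0.24, adjusted p = 0.0061), and was still 4.12-fold above CC (log2 change 2.04, SE 0.25, adjusted p = 1.3e-05).

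In RC, PMEL was under its starting level. The 3 libraries held 41.9, 36.9 and 39.997 CPM, all below the lowest CC library, and the log2 change from CC was -0.83 (SE 0.24, adjusted p = 0.0200). This call was lost without CC replicate 1, RC replicate 2 or RC replicate 3, with log2 changes of -0.83 to -0.77 and adjusted p from 0.0525 to 0.0695. PMEL shares 89 bases of exon with CDK2 on the opposite strand. CDK2 went the other way between CC and TC, from 205 ± 21.3 to 112 ± 21.9 CPM (SD, n = 3, log2 change -0.88, SE 0.15, adjusted p = 0.00025).

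MLANA (Melan-A), a melanosomal protein used as a diagnostic marker of melanocytes, was close to the limit of detection in A375. It lies on chromosome 9 (5890889 to 5910606, plus strand), and its libraries held 15 to 78 counts. The level was 0.642, 0.339 and 0.656 CPM in CC, and 1.71, 1.84 and 0.989 CPM in TC. TC libraries were all above CC libraries (log2 change 1.46, SE 0.35, adjusted p = 0.0027). In PC it was 1.94, 1.69 and 1.11 CPM, overlapping TC. The log2 change between PC and TC was 0.07 (SE 0.33, 95% interval -0.66 to 0.79, adjusted p = 0.912). RC had 0.689, 0.427 and 0.454 CPM and overlapped CC (log2 change -0.07, SE 0.36, adjusted p = 0.903).

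RAB27A, the small GTPase that tethers melanosomes, moved opposite to the enzymes. It lies on chromosome 15 (55202966 to 55319113, minus strand). CC libraries held 28.4, 25.7 and 24.3 CPM, and TC libraries 18.3, 20.2 and 19.4. The groups did not overlap, and the log2 change was -0.44 (SE 0.08, adjusted p = 0.00038), or 1.36-fold lower. PC held 17.3, 16.2 and 16.9 CPM, a change from CC of -0.64 (SE 0.08, adjusted p = 1.7e-05). RC was at 24.0, 26.9 and 26.2 CPM, overlapping CC (log2 change -0.02, SE 0.08, adjusted p = 0.844). RAB27A also overlaps exons of PIGBOS1 on the same strand (183 bases) and of PIGB on the opposite strand (154 bases), neither of which was called between TC and CC (adjusted p = 0.767 and 0.445).

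The remaining pair of melanosome membrane genes were too low to test. GPR143, a G protein-coupled receptor on chromosome X (9725346 to 9786297, minus strand), had 1, 5 and 2 counts in the CC libraries and 0, 0 and 1 with MAPKi. PC libraries held 0, 2 and 0 counts and RC libraries 1, 1 and 8. OCA2, a transporter that sets melanosome pH and lies on chromosome 15 (27754875 to 28099315, minus strand), had 8, 5 and 2 counts in the CC libraries and 6, 2 and 6 with MAPKi. PC libraries held 1, 23 and 5 counts and RC libraries 13, 24 and 21. The RC libraries of OCA2 were all above the CC libraries, at 0.381 ± 0.055 against 0.118 ± 0.078 CPM (SD, n = 3). With the filter lowered to a summed count of 2, which let in 26649 genes, neither gene was called in any of the 5 comparisons. The log2 change of OCA2 from CC to RC was then 1.72 (SE 0.74, adjusted p = 0.126). Smaller differences in these genes were not detectable at this depth.

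**Figure D2:**
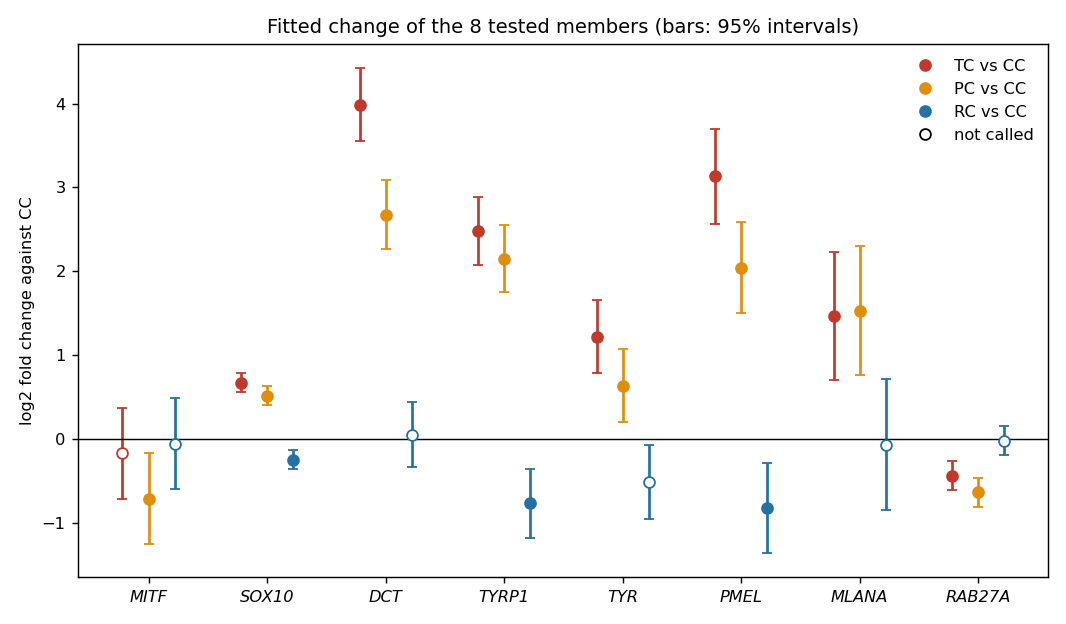
Fitted log2 fold change against CC of the 8 tested genes in TC, PC and RC, with bars for 95% intervals, filled points for genes called at an adjusted p under 0.05 and open points for the others. DCT and PMEL reach 3.99 and 3.13 in TC, MITF sits at -0.17 with an interval across 0, and in RC the values lie between -0.83 and 0.05.

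Levels were compared between genes per kilobase of annotated exon. The length was the union of the exons of all annotated transcripts, which can exceed that of the transcript expressed, so the order is not one of transcript abundance. In CC the order ran from SOX10 (136.5 CPM per kb) through DCT (54.0 ± 8.07), MITF (48.8 ± 13.3) and PMEL (19.1 ± 1.67) to RAB27A (2.31 ± 0.183). TYRP1 (0.974 ± 0.186), TYR (0.806 ± 0.028), MLANA (0.182 ± 0.060), OCA2 (0.036 ± 0.024) and GPR143 (0.025 ± 0.020) followed. DCT and MITF did not differ beyond their spread, nor did TYRP1 and TYR, nor OCA2 and GPR143. In TC, DCT came first at 856 ± 175 CPM per kb, ahead of SOX10 at 217 ± 4.23 and PMEL at 168 ± 54.1, which were within 1 SD of each other. MITF followed at 43.3 ± 11.51, TYRP1 at 5.44 ± 0.854, TYR at 1.88 ± 0.426 and RAB27A at 1.70 ± 0.081. The place of RAB27A below TYR rests on union lengths of 11345 and 2593 bases. In CPM, RAB27A was above TYR in TC (19.3 against 4.87). RC returned to the order of CC, with DCT at 55.8 ± 2.81 and MITF at 46.8 ± 1.74 CPM per kb.

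The pigment genes and MITF were then set against each other within each library, a measure chosen after the levels were seen. In CC there were 0.925 to 1.45 DCT reads per MITF read, and in TC 19.3 to 22.3. The groups were far apart, a 17.5-fold difference of means. PC held 11.0 to 13.3 DCT reads per MITF read, below TC without overlap, and RC held 1.14 to 1.30. PMEL gave 0.150 to 0.246 reads per MITF read in CC, 1.78 to 2.01 in TC, 1.24 to 1.41 in PC and 0.102 to 0.125 in RC. An exact permutation test between 3 and 3 libraries cannot go below p = 0.1 (two-sided), which any separation without overlap gives. In 5 of the 6 comparisons of these ratios that value was reached (adjusted p = 0.12), so the test adds nothing to the lack of overlap. The exception was DCT in RC against CC (exact permutation p = 0.7).

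Within TC and within PC, the ratios of DCT and PMEL to MITF varied less from library to library than their levels. The coefficient of variation in TC was 20.4% for the DCT level and 8.30% for its ratio to MITF, and for PMEL it was 32.3% and 6.06%. In PC the ratio had 9.74% against 23.6% for DCT and 6.71% against 31.3% for PMEL. In CC and RC it was the other way. The DCT ratio had 22.9% against 14.9% for its level in CC, where replicate 3 was the library with the highest MITF, and 6.87% against 5.04% in RC. TYRP1 was mixed, with 13.2% for the ratio and 15.7% for the level in TC but 22.4% and 19.8% in PC. Its mean ratio to MITF was 0.0647 in TC and 0.0761 in PC, while those of DCT and PMEL were lower in PC. For SOX10 in TC the level varied by 1.95% and the ratio by 26.2%. With 3 libraries a group, these are descriptions and were not tested. Ratios to MITF were not worked out for all other genes, so the smaller variation is not shown to be particular to DCT and PMEL.

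**Figure D3:**
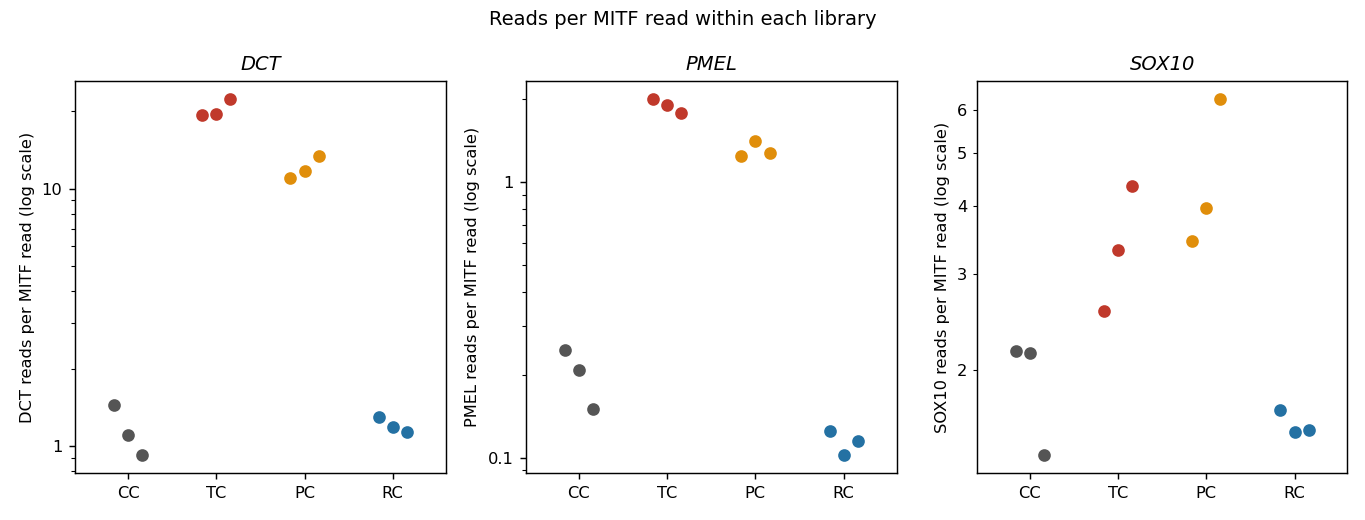
Reads of DCT, PMEL and SOX10 per read of MITF in each library, on log axes, with a point for each of the 3 replicates of a group. For DCT the 3 TC libraries lie between 19.3 and 22.3 and those of CC between 0.925 and 1.45, while the SOX10 points of TC spread from 2.57 to 4.35.

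Among 11914 genes of sufficient depth, those nearest to MITF in the 3 fitted changes against CC were DENND4C, UBR2, NIPSNAP2, USP9X and SHROOM1, with root mean square differences of 0.019 to 0.063 on the log2 scale. None of them is a pigment gene. For SOX10 they were STAT6, DENND5B, THBS3, ANAPC2 and HPS1 (0.020 to 0.038). HPS1, mutated in Hermansky-Pudlak syndrome, takes part in melanosome biogenesis. The genes nearest to PMEL, LRRC73, RNH1, ELMOD1, PTGES and HCN2, were farther away (0.205 to 0.370). Among all other tested genes, TYRP1 was the 10th nearest to PMEL of 15915 (0.383) and DCT the 212th (0.794). MLANA was 679th (1.10), TYR 1417th (1.39), SOX10 3034th (1.71), MITF 10143rd (2.52) and RAB27A 10851st (2.62). A rank also depends on how many genes lie close by. MLANA, at the smaller distance of 0.753 from SOX10, was 7616th in nearness to it. DCT was 15359th in nearness to MITF (3.10), while RAB27A was 193rd (0.161). The 3 changes share the CC libraries, so nearness was not tested.

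The rest of the pathway was followed through 6 lists, whose counts are to be set against the shares of all genes called higher and lower, 33.2% and 34.7% in TC. The shares were 33.2% and 35.9% for PC against CC, and for RC against CC 18.2% and 19.1%. Of 15 tested regulators and relatives of MITF, 8 rose and 6 fell in TC, and the median log2 fold change was 0.42. TFAP2A, which works beside MITF at melanocyte genes, rose from 26.1 ± 0.588 to 193 ± 34.3 CPM (log2 change 2.88, adjusted p = 4.1e-09). FOXD3, a neural crest factor reported to repress MITF, rose from 24.5 to 119.5 CPM (2.28, adjusted p = 1.2e-09). POU3F2 (BRN2), a factor of invasive melanoma cells, fell from 48.9 to 7.26 CPM (-2.75, adjusted p = 3.7e-10), and LEF1, the Wnt partner of MITF, from 58.6 to 14.8 CPM (-1.98, adjusted p = 3.7e-10). In PC, 7 of the list were higher and 6 lower than in CC, and β-catenin (CTNNB1) was at 213 against 735 CPM. In RC, 5 were higher and 3 lower. FOXD3 had gone under its control level (12.3 CPM, log2 change -0.998). ATF4, an activator of the stress response, was also lower in RC than in CC (336 against 639 CPM, -0.93). It had been lower still in TC (190 CPM, -1.75) and in PC (215 CPM, -1.57). SMARCA4, a chromatin remodeller that MITF recruits, and SOX9 were higher in RC, by 0.46 and 0.44 on the log2 scale.

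IRF4, a pigment-cell transcription factor that acts with MITF on TYR, is named after its values were seen. It had 0.938, 0.700 and 1.57 CPM in CC and 6.30, 4.37 and 3.41 in TC, from 26 to 295 counts per library over all groups. Every TC library was above every CC library (log2 change 2.13, SE 0.39). PC held 7.72, 5.26 and 3.05 CPM, also above every CC library (2.32, SE 0.39).

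Of 28 tested genes of melanosome biogenesis and transport, 12 rose and 6 fell in TC, with a median of 0.17. SYTL2, an effector of RAB27A, rose from 7.25 to 77.2 CPM (log2 change 3.41, adjusted p = 5.5e-10). MLPH, the melanophilin that joins RAB27A to myosin Va, rose from 15.5 ± 1.98 to 42.4 ± 15.4 CPM (1.45, adjusted p = 0.0012). RAB27A itself fell in the same libraries. SLC24A5, the melanosomal ion exchanger, fell from 39.9 ± 7.77 to 14.8 ± 2.68 CPM (-1.43, adjusted p = 1.4e-05), and HPS4 from 91.6 to 48.6 CPM (-0.91, adjusted p = 9.7e-05). In PC 11 were higher and 10 lower than in CC. The endolysosomal channel TPCN2 was higher (1.30, adjusted p = 1.2e-06), and RAB38, which delivers TYR and TYRP1 to melanosomes, was lower, at 33.1 ± 12.5 against 110.1 ± 7.77 CPM (-1.74, adjusted p = 7.3e-05). RC had 5 higher and 5 lower, with APOE the largest fall, from 743 to 192 CPM (-1.95, adjusted p = 0.00010).

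Receptors and ligands of pigment cells were higher or not called under MAPKi. Of 6 tested, 5 were higher and 0 lower in TC (median log2 change 0.77) and 5 and 0 in PC (0.93), though not the same 5. MC1R, the melanocortin receptor that raises cAMP, had 15.9 ± 3.75 CPM in CC, 62.1 ± 6.70 in TC, 67.9 ± 3.75 in PC and 27.5 ± 2.72 in RC, and was called higher in all 3 against CC (adjusted p = 2.5e-07, 1.3e-07 and 0.0017). EDNRB, the endothelin receptor, rose in TC from 91.2 to 160 CPM (0.81, adjusted p = 0.0087) and was not called in PC (0.50, adjusted p = 0.0740). ERBB3 was called higher in PC (0.48, adjusted p = 0.0068) and not in TC (0.18, adjusted p = 0.237). KITLG, the ligand of KIT, was called higher in TC (0.73, adjusted p = 0.0076), PC (1.24, adjusted p = 0.00019) and RC (1.41, adjusted p = 0.00035). Its TC libraries overlapped CC, and that rise was not called beyond 1.5-fold, unlike those in PC and RC. KIT, named after its values were seen, had 0, 3 and 0 counts in CC and 20, 21 and 15 in TC. It passed the filter through TC and PC alone, so its place among the genes called higher in both is no support for the list. The medians above include it and are no support either. In RC 2 of the list were lower, ERBB3 (-0.54) and GNAS (-0.22), the latter the G protein that couples MC1R to cAMP.

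Among other reported targets of MITF, 6 of 20 tested rose and 8 fell in TC (median -0.25), shares close to the 33.2% and 34.7% of all genes. In this list 4 were higher and 10 lower in PC, and 3 and 5 in RC. TRPM1, described below, was among those called higher in TC and PC. It passed the filter through these groups alone, so its place there is no support for the list. SNAI2 (Slug) rose from 38.3 ± 13.2 to 91.8 ± 4.06 CPM in TC (1.26, adjusted p = 5.8e-05) and was at 219 ± 11.6 in PC. BCL2A1, an anti-apoptotic protein, rose by 1.04 (adjusted p = 0.0020), while the inhibitor of apoptosis BIRC7 fell from 44.5 to 7.84 CPM (-2.51, adjusted p = 1.1e-08). DIAPH1, a formin, fell from 163 to 42.0 CPM (-1.96, adjusted p = 3.0e-08), and BCL2 was lower in PC (-2.47, adjusted p = 2.4e-06). In RC the cell cycle inhibitor CDKN1A was lower (-0.93, adjusted p = 9.6e-06) and CDK2 higher (0.52, adjusted p = 0.0175).

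TRPM1 (melastatin), a melanocyte cation channel and MITF target, was chosen after its values were seen. It had 0 counts in all 3 CC libraries and in all 3 RC libraries. TC held 194, 143 and 129 counts, and PC 176, 103 and 60. Against a floor of 3 counts per CC library, its mean was at least 54.0-fold higher in TC and at least 40.1-fold higher in PC. It passed the filter through these groups alone, so no test is given for it. The floor covers counting error only.

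Genes of neural crest and glia changed in both directions. Of 12 tested, 8 rose and 3 fell in TC (median 0.69), 7 and 3 in PC (0.42), and 2 and 7 in RC (-0.37). NGFR, the nerve growth factor receptor of neural crest stem cells, went from 4.53 ± 1.13 CPM in CC to 4466 ± 827 in TC and 6310 ± 339 in PC, and was at 18.7 ± 3.31 in RC (log2 changes 9.95, 10.45 and 2.05, adjusted p = 3.4e-11, 2.4e-11 and 2.9e-05). CDH19, a glial cadherin, rose in TC (1.95). RXRG, a retinoid receptor, fell from 203 to 8.52 CPM (-4.58, adjusted p = 5.0e-10). CSPG4, a melanoma surface proteoglycan, fell from 1695 ± 394 to 114 ± 26.6 CPM (-3.89, adjusted p = 5.1e-09).

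Genes of the low-MITF melanoma state changed in both directions. Of 14 tested, 6 rose and 4 fell in TC (median 0.31), 6 and 4 in PC (0.30), and 1 and 3 in RC (-0.23). TGFBI rose from 9.86 to 493 ± 247 CPM (5.65, adjusted p = 2.8e-08) and the AP-1 factor JUN from 46.7 ± 2.51 to 952 ± 15.9 CPM (4.35, adjusted p = 8.2e-12). AXL, the receptor kinase used as a marker of that state, had 6.96 CPM in CC, 112 ± 20.1 in PC (4.01, adjusted p = 8.7e-09) and 15.6 in RC (1.16, adjusted p = 0.00090). NT5E fell in TC from 63.3 to 4.68 CPM (-3.76, adjusted p = 3.0e-11) and EGFR from 5.58 to 1.59 CPM (-1.81, adjusted p = 1.2e-06). No test was made of a list.

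**Figure D4:**
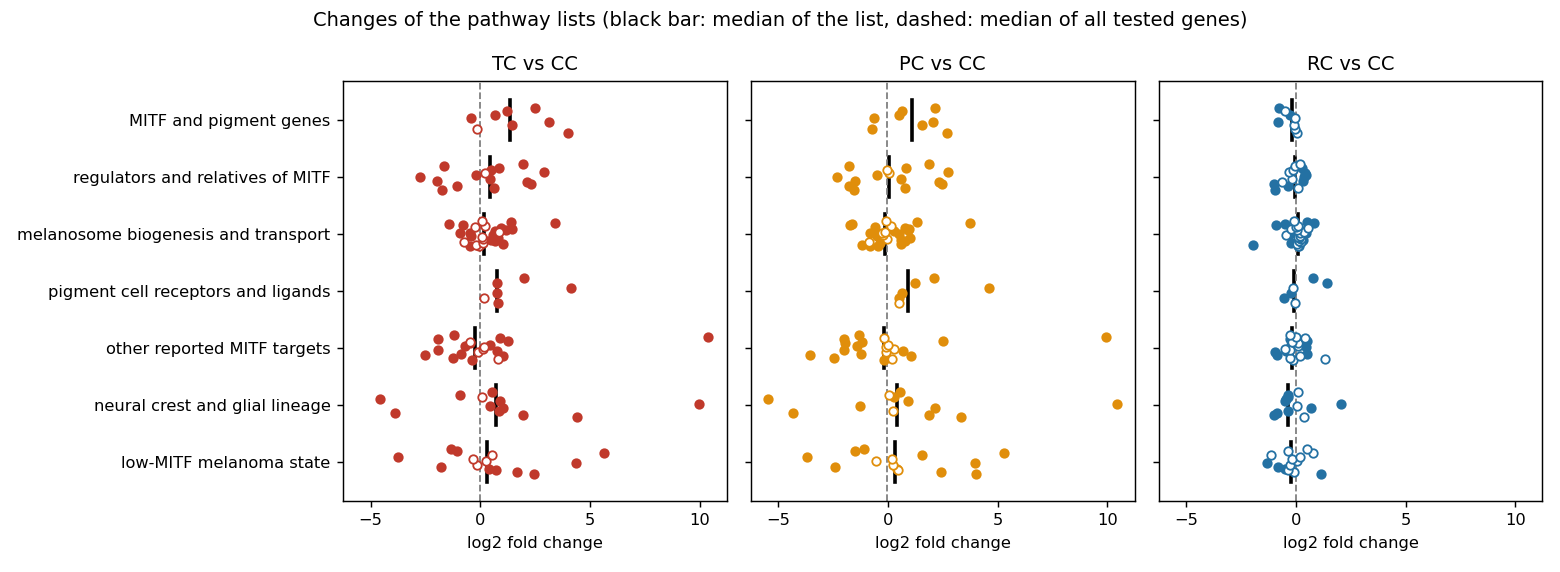
Fitted log2 fold changes against CC of the tested genes of each list in TC, PC and RC, with a point per gene (filled where called), a black bar for the list's median and a dashed line for the median of all tested genes. The pigment genes and MITF have the highest median in TC and PC (1.34 and 1.08), and the point near 10 in the row of other MITF targets is TRPM1, whose plotted value is no measure of size because CC was at 0. KIT, at 4.12 in TC and 4.59 in PC in the row of receptors and ligands, passed the filter through these groups alone.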

How the data were processed

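RNA was sequenced from 12 libraries of A375 cells, 3 for each of CC, TC, PC and RC, with groups taken from the labels. The deposited table holds raw read counts per gene, which the authors made by trimming with fastp 0.20.1, alignment to GRCh38.p13 with HISAT2 2.2.1 and counting over NCBI gene models with HTSeq 0.13.5, per the labels and the study's methods. The setting for strand and the handling of reads with several alignments were not given in the sources used here. Labels do not say whether replicates came from separate cultures, so p-values measure the spread between these samples.

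From the deposited counts, genes with a mean count of at least 10, scaled to library size, were kept (15916 of 44659). Counts were normalized with TMM factors, which ran from 0.965 to 1.02, and all 12 libraries entered a single quasi-likelihood model with 1 coefficient for each group (edgeR 4.0.16, R 4.3.3), which left 8 residual degrees of freedom. The 5 comparisons set TC, PC and RC against CC, PC against TC, and RC against PC. Calls were made at a two-sided Benjamini-Hochberg adjusted p under 0.05 over all tested genes (glmQLFTest), or for changes beyond 1.5-fold with glmTreat. CPM values use TMM-scaled totals. A DESeq2 1.42.0 fit, other scalings and filters, a replicate block and the omission of each library were alternatives. The procedure was tested on simulated data, and no library was found to be a duplicate of another.

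The members and the lists were chosen with earlier results of these data known. All members were named, as were, for each list and comparison with CC, the called genes with the 2 largest rises and falls at a mean scaled count of at least 100, the genes nearest in pattern to MITF, SOX10 and PMEL, and 3 MAPK targets. A gene that this rule names is not reported here. IRF4, KIT and TRPM1 were added after their values were seen. Coordinates and exon lengths came from GENCODE (hg38), matched by symbol, while the counts rest on NCBI gene models.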

Additional observations from a re-analysis of the deposited data

How the results depend on the processing

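The log2 changes of the 8 tested genes in 5 comparisons were recomputed under 18 alternatives, of which 12 left out 1 library each. Of 720 recomputed changes, 667 kept their direction and their side of the threshold, 38 lost a call, 2 gained one and 13 turned sign. The 13 were changes that were not called: MITF from CC to TC (-0.37 to 0.082 over the omissions of 1 library) and to RC (-0.17 to 0.19), DCT from CC to RC (-0.072 to 0.11), MLANA from CC to RC (-0.32 to 0.093) and from TC to PC (-0.17 to 0.27), and RAB27A from CC to RC (-0.069 to 0.040, and 0.0051 with library totals). The cause was not tested. The rises of DCT, PMEL, TYRP1, MLANA and SOX10 in TC and PC were called under all 18 alternatives.

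The 4 genes lower in PC than in TC were the least stable count. They were 2 with the size factors of DESeq2 in edgeR, 2 with library totals, 2 with a summed count of at least 2 and 2 with only the 2 groups compared, and 2 to 4 when a library was left out. SOX10 lost that call in 14 alternatives and TYR in 13. Beyond 1.5-fold, 0 genes were lower in PC than in TC with only the 2 groups compared, and 1 to 2 with a library left out. The genes lower in PC than in CC were 1 to 2 and those higher in RC than in PC 1 to 2 with a library left out, MITF being the gene lost. Whether the replicate numbers pair the libraries was not settled. Of 18 same-number pairs, 2 had deviations that correlated over 0.1 (-0.05 to 0.23). These were replicates 1 (0.23) and 3 (0.21) of TC with PC. Yet 10 of 12 libraries correlated best with their own number. The main fit had no replicate block. With the replicate block, 4 genes in place of 3 were lower in RC than in CC (TYR, adjusted p = 0.0498) and 3 in place of 4 lower in PC than in TC (without SOX10, adjusted p = 0.0532), and the other counts of members did not change.

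Depth limits GPR143 and OCA2, with at most 24 counts per library, and MLANA, with at most 78.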
